A study of Homo sapiens with 4 samples.

Results

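The genes described here are the heat shock proteins, the DNAJ (J-domain) co-chaperones and the heat shock factors HSF1 and HSF2 in 2 lymphoma cell lines. They were chosen by symbol, as rows of the gene table named HSPA, HSPB, HSP90AA1, HSP90AB1, HSP90B1, HSPD1, HSPE1, HSPH1, HSF1, HSF2, DNAJA, DNAJB or DNAJC with a mean above 0. Of 41507 genes in the table, 74 carried such a symbol and 65 of these were above 0. SU-DHL-5 and Toledo are established lines of diffuse large B-cell lymphoma (DLBCL), and the labels give both as B lymphocytes. JQ1 blocks the pockets with which BET proteins hold acetylated histones, and DMSO is its solvent. For each line, 1 sample received DMSO and 1 received JQ1 at 1 µM, for 6 h according to the labels, while a legend in the paper gives a longer time. Each sample has 2 library columns, which were averaged and counted as 1 replicate. Neither a ratio within a line nor a difference between the lines can therefore be tested. A JQ1 effect common to both lines was tested with the lines as the replicates, in 1 fit across all genes.

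Heat shock proteins are chaperones, which bind unfolded stretches of other proteins and help them to fold, assemble or be degraded. HSP70 proteins (the HSPA genes) take up and release clients in a cycle driven by ATP. J-domain proteins bring clients to HSP70 and start ATP hydrolysis, and HSP110 proteins (HSPH1, HSPA4) exchange its nucleotide. HSP90 acts later on kinases, receptors and transcription factors. The endoplasmic reticulum (ER) and the mitochondrion have their own sets, with HSPA5 and HSP90B1 in the ER and HSPA9 and the HSPD1-HSPE1 chaperonin in mitochondria. HSF1 is the main transcription factor of the heat shock response and binds inverted repeats of GAA and TTC in the promoters of its targets.

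Levels are RPKM, that is read counts scaled to the length of the gene in kilobases and to the number of mapped reads in the library. Whole reads could be recovered from these values for all 65 genes, and the libraries held between 14617583 and 17679831 mapped reads. A log2 ratio is log2((a + 0.1)/(b + 0.1)) of mean RPKM. The interval printed with it is the exact binomial 95% interval of the recovered reads, which covers counting error only and not the spread between cultures. A mean of at least 1 RPKM over the libraries was reached by 54 of the 65 genes, and by 9521 genes in all. Between the libraries of a sample, the median absolute log2 difference over the 54 genes was 0.05 to 0.13, and 1 gene differed by 1.5-fold or more within SU-DHL-5 DMSO (HSPA1A) and 1 within Toledo DMSO (DNAJB4). The B-cell markers MS4A1, CD79A, CD79B and PAX5 were all at 1 RPKM or more. Their summed level was 832 to 939 RPKM with DMSO and 610.4 to 616 RPKM with JQ1 in SU-DHL-5, and 837 to 898 RPKM with DMSO and 592 to 609.9 RPKM with JQ1 in Toledo. The part of this difference in the results on chaperones was not tested. None of 5 T-cell and 5 myeloid markers reached a mean of 1 RPKM over the libraries, and their sums were at most 1.09 and 1.35 RPKM in any library. With DMSO in SU-DHL-5, CD3E stood at 1.09 and 0.934 RPKM and LYZ at 1.09 and 1.20 RPKM, and with JQ1 they stood at 0.120 and 0.0452 RPKM and at 0.200 and 0.0903 RPKM. Of these markers, CD2, CD7 and MPO were at 0 in every library. The 5 epithelial or stromal markers summed to 0.0639 to 0.125 RPKM in SU-DHL-5 and to 134 to 155 RPKM in Toledo, nearly all of it VIM (vimentin), which lymphoid cells can also express. EPCAM and KRT8 were at 0, and COL1A1 reached 2.29 and 2.72 RPKM in Toledo with DMSO. The part of these levels in the differences between the lines was not tested. In bulk RNA, fewer cells of a kind and less RNA per cell cannot be told apart.

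Promoter sequences were read for the genes whose windows hold the longer HSF1 motif, because they show which members carry it. RefSeq windows (GRCh38.p14) of 250 bases before to 50 after a start were matched by symbol for 64 of the 74 genes. The triplet GAANNTTCNNGAA or TTCNNGAANNTTC was searched on both strands. It was found in windows of 7 of the 64 genes (10.9%) and of 166 of all 27305 genes (0.608%). The shorter pair GAANNTTC or TTCNNGAA, which every triplet contains, was in windows of 34.4% of the 64 genes and 16.2% of all genes. The matches before the RefSeq start site are printed 5′ to 3′ on the strand of the gene, with the triplet in capitals. Apart from the DNAJB6 run and the first HSPA8 run, they lie inside the span listed for the gene in the deposited data. Runs that cross an annotated untranslated region are cut short.
HSPA8, 230 bases before the start: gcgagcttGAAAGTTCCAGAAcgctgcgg
HSPA8, 55 bases before the start: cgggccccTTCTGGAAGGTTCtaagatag
HSP90AA1, 88 bases before the start: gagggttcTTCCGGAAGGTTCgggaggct
HSP90AB1, 165 bases before the start: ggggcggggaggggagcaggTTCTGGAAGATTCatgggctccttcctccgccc
HSP90AB1, 112 bases before the start: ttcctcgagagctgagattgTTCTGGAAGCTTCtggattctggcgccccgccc
HSPD1, 245 bases before the start: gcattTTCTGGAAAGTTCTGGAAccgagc
HSPA6, 74 bases before the start: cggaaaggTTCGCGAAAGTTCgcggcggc
DNAJB6, 131 bases before the start: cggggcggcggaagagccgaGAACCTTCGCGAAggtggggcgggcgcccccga
The printed windows lie at chr11:123062346-123062374 and chr11:123062171-123062199 (minus strand), chr14:102087112-102087140 (minus), chr6:44247758-44247810 and chr6:44247811-44247863 (plus), chr2:197500062-197500090 (minus), chr1:161524458-161524486 (plus) and chr7:157336853-157336905 (plus). The HSPD1 run holds 2 overlapping triplets. DNAJA1 is the remaining gene, and its match lies after the start. A match describes the letters of a window and does not show that HSF1 was bound there.

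JQ1 moved few of these genes far. By 1.5-fold, more of them were lower than higher in SU-DHL-5, and as many were lower as higher in Toledo. Over the 54 genes the median log2 ratio came to -0.10 for SU-DHL-5 and -0.07 for Toledo, against 0.01 and -0.06 over all 9521 genes. The Toledo median took its sign from the library used, at 0.04 with the first library of each sample alone and -0.21 with the second alone. In SU-DHL-5, 2 of the 54 genes (3.70%) were at least 1.5-fold higher with JQ1, against a background of 8.7% of all genes, and 5 (9.26%) were at least 1.5-fold lower, against 12%. In Toledo, 5 were higher by that measure (9.26%, against 6.61%) and 5 were lower (9.26%, against 16.1%). In both lines together, 1 was higher (1.85%, against 3.56%) and 4 were lower (7.41%, against 8.54%). Apart from the genes higher in Toledo, these shares lie under those of all genes.

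Over both lines, 12 of the 54 genes fell with JQ1 and 3 rose. This comes from limma on log2(RPKM + 0.1) of the sample means, with the line as a block and an adjusted p under 0.05 over all 9521 genes. The shares were 22.2% lower and 5.56% higher, against 16.3% and 9.98% of all genes. The genes that fell were DNAJC17, DNAJC7, DNAJB11, DNAJC12, HSPA9, DNAJC2, HSPE1, DNAJC4, HSPA5, HSPD1, HSPH1 and HSPA8, with limma adjusted p-values from 0.000608 for DNAJC17 to 0.0498 for HSPA8. Those that rose were DNAJC1, DNAJC6 and DNAJB6, with limma adjusted p-values of 0.00375, 0.0244 and 0.0343. The members that fell span the cytosolic HSP70 (HSPA8), the mitochondrial HSP70 and chaperonin and the ER HSP70. HSPA8, HSPH1 and HSPD1 lay close to the cutoff, with limma adjusted p-values of 0.0498, 0.0462 and 0.0430. With a pseudocount of 0.01 or 1 RPKM, 9 members were called lower. The fit leaves 1 residual degree of freedom per gene, so its spread is mostly that estimated over all genes, and it was added after the values were seen. The fit says nothing of 1 line alone.

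**Figure D1:**
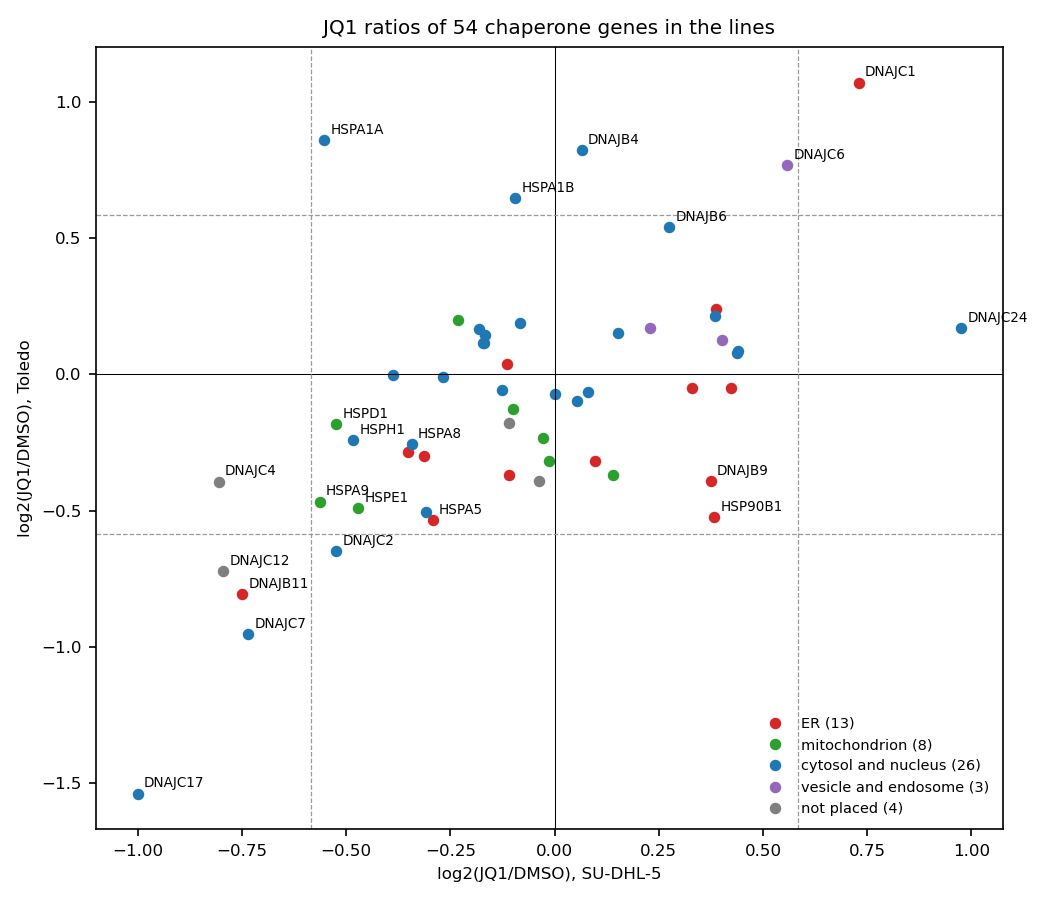
Log2(JQ1/DMSO) of 54 chaperone genes with a mean of at least 1 RPKM, SU-DHL-5 on the horizontal and Toledo on the vertical axis, 1 point per gene, coloured by compartment, with dashed lines at 1.5-fold. DNAJC17, DNAJC7, DNAJB11 and DNAJC12 lie past both lines at the lower left, DNAJC1 at the upper right, and HSP90B1, DNAJB9 and HSPA1A lie in the quadrants of opposite sign.

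A looser count asks only whether both JQ1 libraries lay on one side of both DMSO libraries. In SU-DHL-5, 17 of the 54 genes (31.5%) lay above and 27 (50%) below, against 41.1% and 37.3% of all genes. In Toledo, 15 (27.8%) lay above and 24 (44.4%) below, against 29.3% and 42.9%. For 9 of the 54 genes (16.7%) the lines went opposite ways, against 7.05% of all genes. Across the 54 genes, the lines' ratios had a Pearson r of 0.58 and a Spearman rho of 0.53, and 36 shared their sign (66.7%). Over all genes r was 0.71, rho was 0.72 and 75.7% shared their sign. Genes within a library share its depth and are not replicates.

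The cytosolic HSP70 and HSP90 genes were the most abundant members. HSPA8, the constitutive HSP70, HSP90AB1 and HSP90AA1 together made up 54.9% to 57.5% of the summed RPKM of the 65 genes in every library. The summed level was 5936 and 5557 RPKM with DMSO and 4604 and 4818 RPKM with JQ1 in SU-DHL-5, and 3643 and 3884 against 3459 and 3550 RPKM in Toledo. The JQ1 libraries therefore lay below the DMSO libraries in both lines. As a share of all RPKM, the 65 genes took 1.03% to 1.13% with DMSO and 0.867% to 0.915% with JQ1 in SU-DHL-5, and 0.642% to 0.744% against 0.619% to 0.632% in Toledo.

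HSPA8 (chr11:123057492-123062335), whose triplets are printed above, stood at 1284 and 1118 RPKM with DMSO and 921 and 973 RPKM with JQ1 in SU-DHL-5. In Toledo it stood at 862 and 918 RPKM with DMSO and 728 and 763 RPKM with JQ1. The libraries did not overlap in either line, and the log2 ratios were -0.34 (-0.36 to -0.33) and -0.25 (-0.27 to -0.24). HSP90AB1, the constitutive HSP90, was 1224 and 1076 RPKM with DMSO and 861 and 896 RPKM with JQ1 in SU-DHL-5, and the ratio was -0.39 (-0.40 to -0.37) on the log2 scale. In Toledo its libraries overlapped, at 506 and 550 RPKM with DMSO and 517 and 538 RPKM with JQ1, and the interval of the ratio ran from -0.02 to 0.02. HSP90AA1, the more inducible HSP90, was 886 and 882 RPKM against 754 and 816 RPKM in SU-DHL-5 and 633 and 707 RPKM against 710 and 741 RPKM in Toledo. It was thus lower with JQ1 in the first line and higher in the second, with log2 ratios of -0.17 (-0.19 to -0.16) and 0.12 (0.11 to 0.13).

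Among the nucleotide exchange factors, HSPH1 was lower with JQ1 in both lines and HSPA4 only in SU-DHL-5. HSPH1 was 68.9 and 64.3 RPKM with DMSO and 45.9 and 49.4 RPKM with JQ1 in SU-DHL-5, and 30.2 and 36.2 RPKM against 27.9 and 28.2 RPKM in Toledo. HSPA4 was 106 and 104 RPKM against 91.3 and 95.5 RPKM in SU-DHL-5. Its Toledo libraries overlapped, at 42.3 and 49.1 RPKM with DMSO and 48.4 and 50.7 RPKM with JQ1. DNAJA1, an abundant J-domain partner of HSPA8, and DNAJB1, the J-domain protein most tied to heat shock, showed small differences of opposite sign in the lines. DNAJA1 had log2 ratios of -0.18 (-0.22 to -0.15) in SU-DHL-5 and 0.17 (0.13 to 0.21) in Toledo, and DNAJB1 of -0.17 (-0.23 to -0.10) and 0.15 (0.08 to 0.22).

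Neither heat shock factor had a log2 ratio beyond 0.13 in size with JQ1, but this rests on averaging the libraries. With the first and the second library alone, HSF1 in SU-DHL-5 was at -0.30 and 0.06 and HSF2 in Toledo at 0.09 and -0.28. HSF1 was 58.4 and 47.1 RPKM with DMSO and 47.5 and 49.2 RPKM with JQ1 in SU-DHL-5, and 87.0 and 85.0 RPKM against 77.2 and 88.3 RPKM in Toledo. Its libraries overlapped in both lines. HSF2, a related factor that can form trimers with HSF1, had log2 ratios of 0.05 (-0.09 to 0.19) and -0.10 (-0.22 to 0.03). Both factors were higher in Toledo than in SU-DHL-5 with DMSO, by 0.70 (0.65 to 0.77) and 0.45 (0.32 to 0.58) on the log2 scale.

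**Figure D2:**
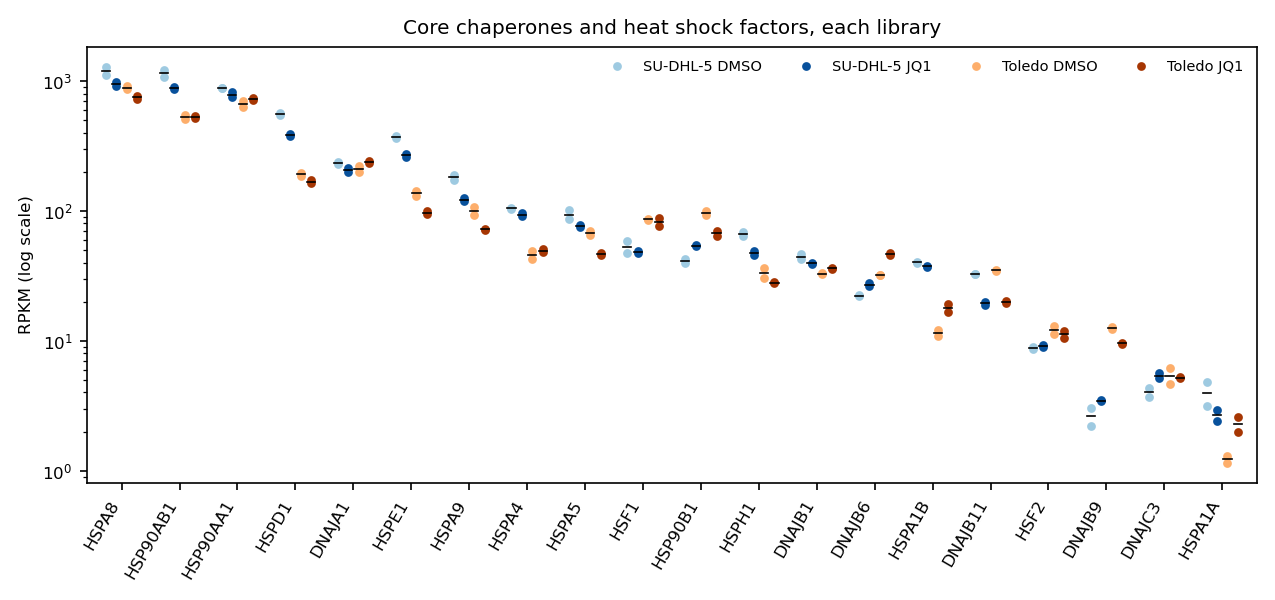
RPKM (log axis) of 20 core chaperones and heat shock factors in each library, ordered by mean level, with points for libraries and black bars for the mean of the 2 libraries of a sample. HSPA8, HSP90AB1 and HSP90AA1 lie highest, and the SU-DHL-5 points of HSPD1, HSPE1, HSPA9 and HSPA4 lie above those of Toledo.

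HSPA1A and HSPA1B, the stress-inducible HSP70 genes, went opposite ways in the lines. HSPA1B (chr6:31827735-31830254) was 40.6 and 39.5 RPKM with DMSO and 37.2 and 37.8 RPKM with JQ1 in SU-DHL-5. In Toledo it was 12.03 and 10.9 RPKM with DMSO and 16.8 and 19.3 RPKM with JQ1. The log2 ratios were -0.10 (-0.17 to -0.02) and 0.65 (0.53 to 0.76). HSPA1A (chr6:31815514-31817942) was much lower, at 4.80 and 3.13 RPKM against 2.94 and 2.39 RPKM in SU-DHL-5 and 1.30 and 1.14 RPKM against 2.61 and 1.99 RPKM in Toledo. The ratios on the log2 scale were -0.55 (-0.81 to -0.29) and 0.86 (0.55 to 1.27), a difference of 1.41 between the lines and the largest of the 54 genes. The transcripts of these genes share an identical run of 1715 bases, so reads can be split between them and each single value is uncertain. Summed, they were 45.4 and 42.7 RPKM against 40.2 and 40.2 RPKM in SU-DHL-5 and 13.3 and 12.1 RPKM against 19.4 and 21.2 RPKM in Toledo, with log2 ratios of -0.13 and 0.67. HSPA6, a further inducible HSP70, was listed at 0 in every SU-DHL-5 library. In Toledo it was 1.45 and 1.51 RPKM with DMSO and 2.02 and 1.75 RPKM with JQ1.

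The mitochondrial HSP70 and both chaperonin genes were lower with JQ1 in both lines, and the other mitochondrial members were mixed. HSPA9 (mortalin), the HSP70 of the matrix that also drives protein import, was 189 and 172 RPKM with DMSO and 119 and 126 RPKM with JQ1 in SU-DHL-5, and 93.0 and 107 RPKM against 71.8 and 72.6 RPKM in Toledo. HSPD1 (HSP60), the barrel of the chaperonin, was 562 and 547 RPKM against 379 and 391 RPKM in SU-DHL-5 and 185 and 197 RPKM against 164 and 172 RPKM in Toledo. HSPE1 (HSP10), its lid, was 366 and 376 RPKM against 259 and 276 RPKM in SU-DHL-5 and 143 and 129 RPKM against 100 and 94.1 RPKM in Toledo. For all 3 genes the JQ1 libraries lay below the DMSO libraries in both lines. The log2 ratios in SU-DHL-5 and Toledo were -0.56 and -0.47 for HSPA9, -0.52 and -0.18 for HSPD1, and -0.47 and -0.49 for HSPE1, so none reached 1.5-fold. Of the 8 mitochondrial members, 5 had JQ1 libraries below DMSO in SU-DHL-5, as did 7 in Toledo, and 1 lay above in each, against 37.3% and 42.9% of all genes below. The compartment's median log2 ratio was -0.17 and -0.28. DNAJA3, the J-domain partner of HSPA9, was at -0.10 (-0.17 to -0.03) and -0.13 (-0.21 to -0.04). DNAJC19, a part of the import motor, had 23.6 and 27.9 RPKM against 28.1 and 28.7 RPKM in SU-DHL-5 and 22.9 and 20.9 RPKM against 18.6 and 15.3 RPKM in Toledo, which is opposite in direction.

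HSPD1 and HSPE1 are neighbours transcribed away from each other, with 104 bases between their first RefSeq start sites on chromosome 2 (197500274 and 197500379). The strip between them holds 1 E-box, CACGTG, the motif bound by MYC with its partner MAX among other factors. It is printed on the plus strand because it lies between the starts of both chaperonin genes, with the E-box in capitals, at chr2:197500345-197500374.
HSPD1-HSPE1, 22 bases before the HSPE1 start: gggtgattttttCACGTGtcgccagggccg
In the gene table the listed spans of HSPD1 (chr2:197486584-197500274) and HSPE1 (chr2:197499997-197503463) overlap by 278 bases, so the printed run lies inside the listed HSPE1 span and reads of the overlap cannot be assigned with certainty. CACGTG was in windows of 9 of the 64 matched genes (14.1%) and of 8.77% of all genes. These 9 were HSPD1, HSPE1, HSPA9, HSF2, HSP90B1, DNAJB9, DNAJC8, DNAJC12 and DNAJC16. In SU-DHL-5, 4 of them had JQ1 libraries below DMSO and 5 above, against 37.3% and 41.1% of all genes. In Toledo 6 lay below and 2 above, against 42.9% and 29.3%. Of the 7 genes with the HSF1 triplet, 6 were at 1 RPKM or more, and their median log2 ratio came to -0.26 for SU-DHL-5 and 0.06 for Toledo. For the 43 such genes without it, the medians were -0.10 and -0.10. The shorter pair was in windows of 15 such genes, HSPA1A, HSPA1B, DNAJB1 and HSPB1 among them, with medians of -0.17 and 0.15. The 34 genes without the pair had -0.10 and -0.21. The part of either motif in these ratios was not tested.

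**Figure D3:**
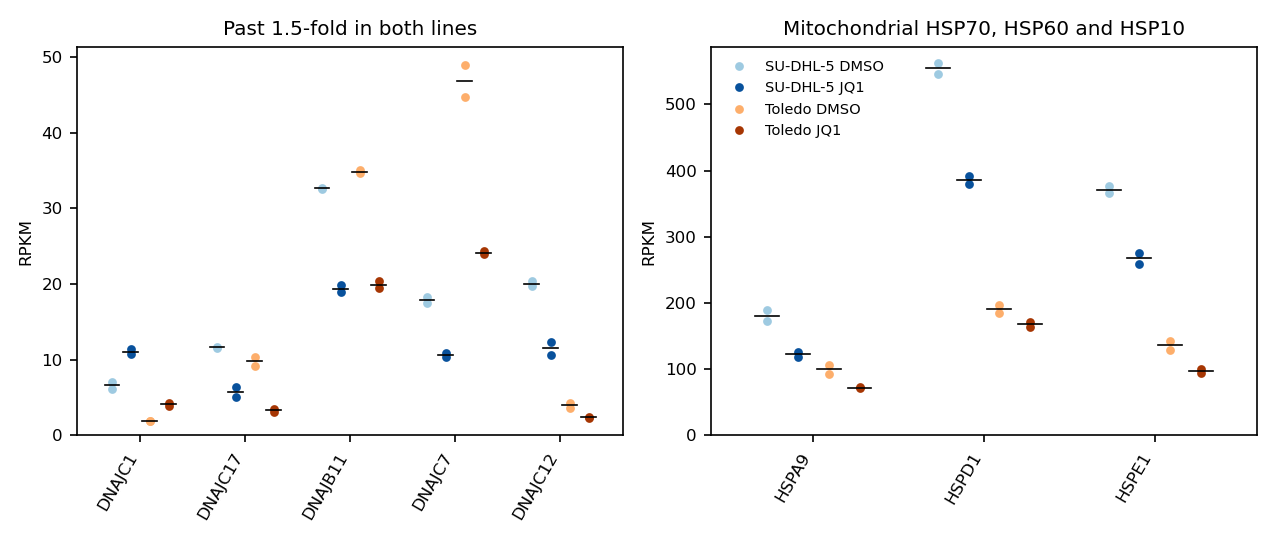
RPKM in each library for the genes past 1.5-fold in both lines (left) and for HSPA9, HSPD1 and HSPE1 (right), with points for libraries and bars for the mean of a sample's libraries. In each line the JQ1 points of DNAJC1 lie above its DMSO points, and those of the other 7 genes lie below.

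The ER chaperones split by gene and by line. HSPA5 (BiP), the HSP70 of the ER, was 101 and 86.1 RPKM with DMSO and 75.4 and 77.2 RPKM with JQ1 in SU-DHL-5, and 64.9 and 70.5 RPKM against 47.7 and 45.7 RPKM in Toledo. It was lower with JQ1 in both, at -0.29 (-0.33 to -0.25) and -0.54 (-0.58 to -0.49). DNAJB11 (ERdj3), which feeds secreted clients to HSPA5, was 32.7 and 32.6 RPKM against 19.9 and 18.9 RPKM in SU-DHL-5 and 34.6 and 35.1 RPKM against 19.4 and 20.3 RPKM in Toledo. It thus stood at similar levels in the lines and had similar ratios, at -0.75 (-0.86 to -0.64) and -0.81 (-0.92 to -0.70) on the log2 scale.

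HSP90B1 (GRP94, chr12:103930334-103947930), the HSP90 of the ER, went opposite ways. It was 42.5 and 39.98 RPKM with DMSO and 54.3 and 53.4 RPKM with JQ1 in SU-DHL-5, but 93.1 and 100 RPKM against 70.1 and 64.5 RPKM in Toledo. The log2 ratios were 0.38 (0.33 to 0.45) and -0.52 (-0.57 to -0.47). DNAJB9 (ERdj4), an HSPA5 partner that also restrains the stress sensor IRE1, was 2.21 and 3.06 RPKM against 3.41 and 3.48 RPKM in SU-DHL-5, and 12.3 and 12.8 RPKM against 9.62 and 9.47 RPKM in Toledo. These give log2 ratios of 0.37 (0.12 to 0.64) and -0.39 (-0.53 to -0.26). DNAJC3 (P58IPK) was higher in SU-DHL-5, at 3.68 and 4.33 RPKM against 5.18 and 5.63 RPKM, while its Toledo libraries overlapped. The direction of HSP90B1 and DNAJB9 in SU-DHL-5 was opposite to that of HSPA5 and DNAJB11. Of the 13 ER members, 6 lay above and 6 below DMSO in SU-DHL-5, and 2 above and 7 below in Toledo, with medians of 0.10 and -0.30. Among all genes 41.1% lay above and 37.3% below in SU-DHL-5, with 29.3% and 42.9% for Toledo, so these counts are close to the background.

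The windows of HSPA5 and HSP90B1 also hold the ER stress element, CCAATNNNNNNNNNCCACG or the reverse complement, which ATF6 binds with NF-Y. This motif was searched after the values were seen, and it was in windows of 2 of the 64 genes (3.12%) and of 0.0916% of all genes. The runs show the element in HSPA5 and HSP90B1, whose ratios differed in sign in SU-DHL-5. Of the ER folding genes counted further below, CALR, CANX, CRELD2, PDIA6 and XBP1 also hold it in a window. Their JQ1 libraries lay below DMSO in both lines, as did those of HSPA5. Among all genes 37.3% lay below in SU-DHL-5 and 42.9% in Toledo. On the same list PDIA3, HYOU1, SDF2L1, MANF, EIF2AK3 and DDIT3 also lay below in both lines, and the element was not found for them. The part of the element in these ratios was not tested.
HSPA5, 66 bases before the start: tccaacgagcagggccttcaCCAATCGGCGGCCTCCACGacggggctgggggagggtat
HSP90B1, 194 bases before the start: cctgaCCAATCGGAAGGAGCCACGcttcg
HSP90B1, 89 bases before the start: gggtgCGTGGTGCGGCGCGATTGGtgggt
They lie at chr9:125241371-125241429 (minus strand), chr12:103930211-103930239 and chr12:103930316-103930344 (plus).

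**Figure D4:**
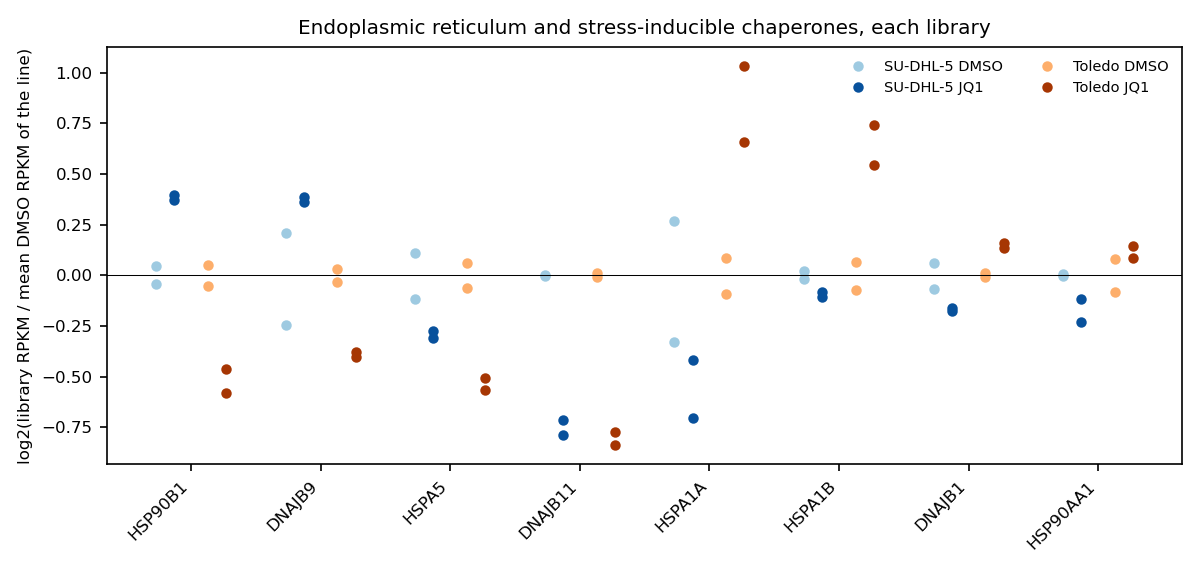
Log2 of each library's RPKM over the mean DMSO RPKM of its line, for 8 ER and stress-inducible chaperones, with 1 point per library. HSP90B1 and DNAJB9 lie above 0 with JQ1 in SU-DHL-5 and below 0 in Toledo, HSPA1A, HSPA1B, DNAJB1 and HSP90AA1 do the reverse, and HSPA5 and DNAJB11 lie below 0 in both.

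The largest changes shared by the lines were in J-domain genes. DNAJC17 (chr15:40767869-40807478), a nuclear J-domain protein with an RNA-binding motif, was 11.7 and 11.5 RPKM with DMSO and 5.09 and 6.41 RPKM with JQ1 in SU-DHL-5. In Toledo it was 10.4 and 9.15 RPKM against 3.48 and 3.12 RPKM. Its log2 ratios of -1.001 (-1.27 to -0.78) and -1.54 (-1.88 to -1.27) were the lowest of the 54 genes in each line. Its listed span overlaps ZFYVE19 by 403 bases and C15orf62 by 2489 bases, and the counting is not stated to use strand. The spans of DNAJC7 (with NKIRAS2, 3796 bases, and CNP, 1320 bases), DNAJC2 (with PMPCB, 17429 bases, and PSMC2, 469 bases) and DNAJC24 (with IMMP1L, 435 bases) also overlap genes at mean levels of 9.55 to 40.8 RPKM. Their values carry the same limit.

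DNAJC7 (TPR2, chr17:41976421-42021371), which hands clients between HSP70 and HSP90, was 18.2 and 17.4 RPKM against 10.4 and 10.9 RPKM in SU-DHL-5 and 44.7 and 49.0 RPKM against 24.0 and 24.3 RPKM in Toledo. JQ1 lay below DMSO by log2 ratios of -0.74 (-0.86 to -0.63) and -0.95 (-1.03 to -0.88), although Toledo began from a level 2.62-fold higher. DNAJC12 (chr10:67796669-67838179), a co-chaperone of the aromatic amino acid hydroxylases, was 19.8 and 20.4 RPKM against 12.4 and 10.7 RPKM in SU-DHL-5 and 4.33 and 3.67 RPKM against 2.45 and 2.31 RPKM in Toledo. The lines again moved alike, with log2 ratios of -0.79 (-0.95 to -0.64) and -0.72 (-1.09 to -0.42). DNAJC2, a ribosome-bound J-domain protein that works with HSPA14, was close behind at -0.52 (-0.63 to -0.42) and -0.65 (-0.76 to -0.54), and so past 1.5-fold in Toledo only.

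DNAJC1 (ERdj1, chr10:21756548-22003721), an ER membrane protein that binds ribosomes, was the member at least 1.5-fold higher in both lines. It was 6.15 and 7.10 RPKM with DMSO and 10.8 and 11.4 RPKM with JQ1 in SU-DHL-5, and 1.95 and 1.86 RPKM against 4.32 and 3.88 RPKM in Toledo. The log2 ratios were 0.73 (0.56 to 0.90) and 1.07 (0.81 to 1.42), in which it was the highest in Toledo. DNAJC28, under the 1 RPKM filter, had ratios of 0.86 (0.40 to 1.49) and 0.88 (0.18 to 2.25) at levels of at most 1.61 RPKM.

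Other J-domain genes were higher with JQ1 in 1 line or in both. DNAJC24 (DPH4), which acts in diphthamide synthesis, was 3.44 and 3.36 RPKM against 6.61 and 6.96 RPKM in SU-DHL-5, where its log2 ratio of 0.98 (0.80 to 1.19) was the highest of the 54 genes. In Toledo its libraries overlapped, at 5.47 and 7.84 RPKM with DMSO and 7.83 and 7.17 RPKM with JQ1. DNAJB4 was 0.946 and 1.56 RPKM against 2.46 and 2.13 RPKM in Toledo, at 0.82 (0.58 to 1.19), and overlapped in SU-DHL-5, at 17.8 and 21.9 RPKM against 20.7 and 20.8 RPKM. DNAJC6 (auxilin), which uncoats clathrin vesicles with HSPA8, was higher in both lines, at 0.56 (0.43 to 0.71) and 0.77 (0.64 to 0.99). DNAJB6, which holds back protein aggregation and carries an HSF1 triplet, was 22.1 and 22.5 RPKM against 26.3 and 27.7 RPKM in SU-DHL-5 and 31.8 and 32.1 RPKM against 47.7 and 45.3 RPKM in Toledo. The libraries lay apart in both lines, with log2 ratios of 0.27 (0.20 to 0.35) and 0.54 (0.48 to 0.60). All 3 vesicle and endosome members (DNAJC5, DNAJC6 and DNAJC13) had JQ1 libraries above DMSO in SU-DHL-5, and DNAJC5 and DNAJC6 in Toledo. Among all genes 41.1% and 29.3% lay above.

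By family, the 10 HSP70 and HSP110 genes at 1 RPKM or more had medians of -0.30 and -0.25, in the order SU-DHL-5 and Toledo. Their JQ1 libraries lay below DMSO for 8 and 5 genes, and above for 0 and 2, against 37.3% and 42.9% of all genes below. The 23 DNAJC genes centred near 0, with medians of -0.01 and -0.05. In each line 4 of them were at least 1.5-fold lower, against 12% and 16.1% of all genes. At least 1.5-fold higher were 2 in each line, against 8.7% and 6.61% of all genes, so these counts are near the background. The 9 DNAJB genes had medians of 0.08 and -0.05. The 3 DNAJA genes all lay below DMSO in SU-DHL-5, while 1 lay above and 1 below in Toledo, against the same 37.3% and 42.9% below.

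With DMSO, the lines differed widely in named chaperones. The median log2 ratio of Toledo over SU-DHL-5 was -0.40 for the 54 genes and -0.01 for all genes. At least 2-fold lower in Toledo were 14 of the 54 (25.9%), against 13.3% of all genes, and 7 (13.0%) were at least 2-fold higher, against 14.4%. All 8 mitochondrial members had a lower mean in Toledo, with a median of -0.69, against 4815 of all 9521 genes. The libraries of the lines lay apart for 7 of them, against 4018 of all genes lower in this way, and overlapped for DNAJC11. The 13 ER members had a median of 0.40. Of these, 8 lay apart above SU-DHL-5 and 5 apart below, against 4005 and 4018 of all genes.

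HSPB1 (HSP27, chr7:76302558-76304297), the best known small heat shock protein, was listed at 0 in all 4 SU-DHL-5 libraries. In Toledo it was 102 and 88.1 RPKM with DMSO and 85.6 and 94.8 RPKM with JQ1, which overlap. HSPA4L (APG-1), an HSP110 relative, was 0 and 0.0260 RPKM with DMSO and 0.0134 and 0 RPKM with JQ1 in SU-DHL-5, against 7.40 and 9.33 RPKM and 9.81 and 9.29 RPKM in Toledo. The ER proteins HSPA13, HSP90B1 and DNAJB9 were also higher in Toledo, by 1.57 (1.44 to 1.73), 1.23 (1.17 to 1.28) and 2.21 (2.03 to 2.46) on the log2 scale. DNAJC4 differed by 2.12 (1.95 to 2.34) and was lower with JQ1 in both lines, at -0.81 (-1.13 to -0.53) in SU-DHL-5 and -0.39 (-0.52 to -0.27) in Toledo.

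Higher in SU-DHL-5 were DNAJB4, with a log2 ratio of Toledo over SU-DHL-5 of -3.88 (-4.26 to -3.76), and DNAJC15 (MCJ), an inner membrane protein of mitochondria, with -3.00 (-3.16 to -2.89). DNAJC15 was 42.6 and 45.3 RPKM with DMSO in SU-DHL-5 and 5.46 and 5.37 RPKM in Toledo. DNAJC12, DNAJB2 (HSJ1), which binds ubiquitin chains, and HSPA1B followed at -2.30, -2.08 and -1.80. The chaperonin was lower in Toledo at -1.54 for HSPD1 and -1.44 for HSPE1, HSP90AB1 at -1.12 and HSPA4 at -1.20. These ratios were far larger than the differences between the libraries of a sample, but each rests on 1 sample per line.

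**Figure D5:**
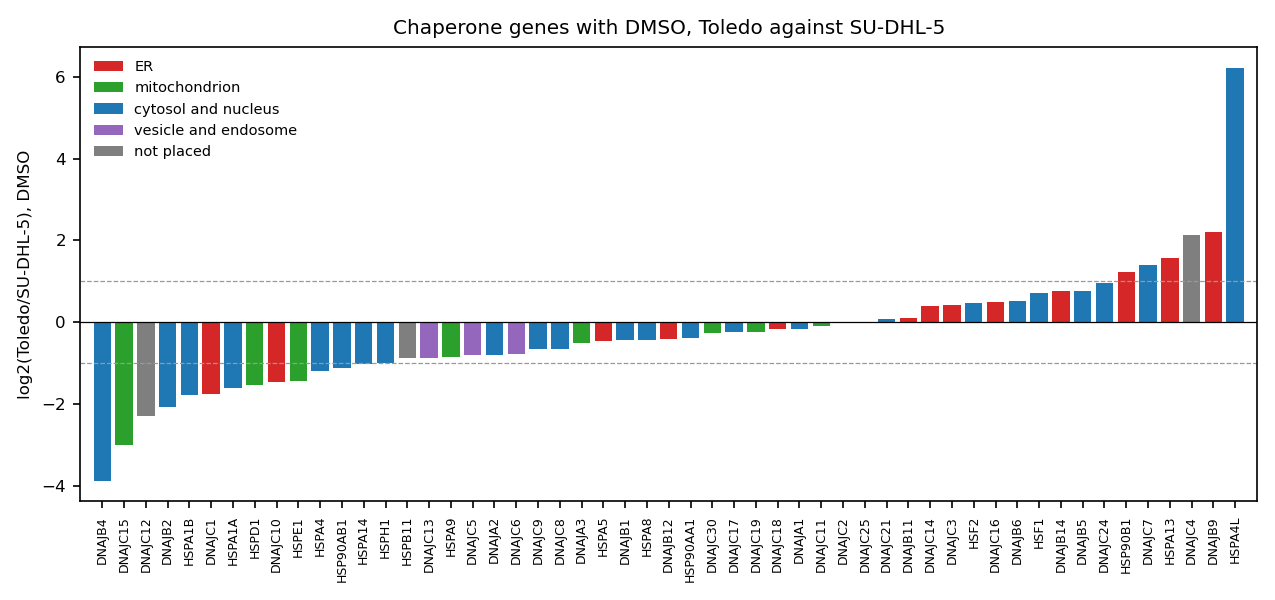
Log2 ratio of Toledo over SU-DHL-5 with DMSO for 53 genes with a mean of at least 1 RPKM, 1 bar per gene, coloured by compartment, with dashed lines at 2-fold. HSPB1 is left out because it was listed at 0 in SU-DHL-5. HSPA4L stands highest at 6.23, DNAJB4 lowest at -3.88, and every mitochondrial bar is below 0.

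The transcript table split 22 member genes into 2 or more transcripts with a mean of at least 1 RPKM. In 8 of these genes the share of a transcript lay apart between DMSO and JQ1 libraries in the same direction in both lines (36.4%), against 29.9% of all 4179 genes so split. DNAJA3_1 took 19.1% of the gene's transcript RPKM with DMSO and 28.3% with JQ1 in SU-DHL-5, against 16.6% and 25.2% for the Toledo samples, at the cost of DNAJA3_2. DNAJB2_1 went from 32.3% to 44.4% in SU-DHL-5, with 28.3% to 34.8% for Toledo. HSPB11_3 went down, from 80.6% to 69.1% and from 67.3% to 60.9%. The gene-level ratio can hide such a split. The main HSPD1 transcript, HSPD1_3, begins at 197499916 and so lies downstream of the printed HSPD1 triplets, and it held 97.9% of the gene's transcript RPKM with DMSO and 95.2% with JQ1 in SU-DHL-5, against 99.3% and 97.1% for the Toledo samples. For DNAJB6 in Toledo, DNAJB6_2 was 22.1 and 22.4 RPKM with DMSO and 40.9 and 40.9 RPKM with JQ1, while DNAJB6_1 was 34.1 and 33.7 RPKM against 41.8 and 36.3 RPKM. The log2 ratios were 0.87 and 0.20, the first of which belongs to the transcript with the longer span (chr7:157337017-157417439).

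Other genes of protein folding were counted from lists of partners and parallel systems. Of 18 ER folding and unfolded protein response genes at 1 RPKM or more, 12 had JQ1 libraries below DMSO and 4 above in SU-DHL-5, and 14 below and 0 above in Toledo. The shares of all genes were 37.3% and 41.1%, and 42.9% and 29.3%, in the same order. Their medians were -0.22 and -0.34. XBP1, the factor spliced by IRE1, was 14.3 and 14.4 RPKM against 6.06 and 6.35 RPKM in SU-DHL-5 and 57.3 and 55.8 RPKM against 29.3 and 28.7 RPKM in Toledo. SDF2L1, which works with DNAJB11, had log2 ratios of -1.001 and -0.79.

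The ratios of the cytosolic chaperonin TRiC and its helper prefoldin were small. Of their 14 genes, 12 lay below DMSO in SU-DHL-5 and 11 in Toledo, against 37.3% and 42.9% of all genes, with 1 above in each and medians of -0.20 and -0.20. The leading genes were CCT5, at -0.47 and -0.38, and PFDN4, at -0.34 and -0.62. Among 20 HSP90 and HSP70 co-chaperones, 8 lay below and 6 above in SU-DHL-5, and 9 below and 4 above in Toledo, close to the shares of all genes. FKBP4, an HSP90 partner in steroid receptor complexes, was 98.1 and 86.0 RPKM against 52.1 and 55.2 RPKM in SU-DHL-5 and 133 and 132 RPKM against 68.0 and 74.9 RPKM in Toledo. HSPBP1, an HSP70 nucleotide exchange factor, was at -0.48 and -0.89.

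Of 8 HSF1-responsive co-chaperones at 1 RPKM or more, 4 lay below and 1 above in SU-DHL-5, and 5 below and 2 above in Toledo, with medians of -0.21 and -0.10 and the same background of 37.3% and 42.9% below. Their leading genes were FKBP4 and STIP1, the HSP70-HSP90 adaptor, at -0.48 and -0.26. Among 10 mitochondrial proteases and chaperones, 5 lay below and 3 above in SU-DHL-5 and 4 below and 2 above in Toledo. The background over all genes for SU-DHL-5 was 37.3% below with 41.1% above, while Toledo had 42.9% below with 29.3% above. CLPP, the matrix protease, was 108 and 100 RPKM with DMSO and 40.8 and 42.2 RPKM with JQ1 in SU-DHL-5, and 101 and 88.0 RPKM against 25.5 and 27.5 RPKM in Toledo. Its log2 ratios of -1.32 and -1.83 were lower than those of any of the 54 chaperone genes, and GRPEL2, an exchange factor of HSPA9, followed at -0.47 and -0.41. Of 4 J-domain genes with other names, HSCB was at -0.31 and -0.33 and GAK, a relative of DNAJC6, at 0.31 and 0.34.

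The remaining members were low. Of the 65 genes, 11 had a mean above 0 and under 1 RPKM, among them HSPA1L, HSPA2, HSPB6, DNAJC22, DNAJC27 and DNAJC28, and HSPA6, which was above 1 RPKM in Toledo. DNAJC27 was 0.731 to 0.996 RPKM in SU-DHL-5 and 0.745 to 1.23 RPKM in Toledo. The 9 symbols at 0 in every library, which the rule leaves out, were DNAJB3, DNAJB8, HSPA7, HSPA12A, HSPB2, HSPB3, HSPB7, HSPB8 and HSPB9, which include most of the small heat shock proteins.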

How the data were processed

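RNA was sequenced from 1 DMSO and 1 JQ1 sample each of SU-DHL-5 and Toledo, with 2 library columns per sample. RPKM tables of genes and of transcripts were deposited, made per the file headers from paired and trimmed reads; the labels name a stranded mRNA kit, and the submitters' processing notes name CASAVA 2.0 and GRCh38 (hg38). The aligner, the counting and the annotation are not given in the sources used here. Listed starts are counted from 0 and were printed from 1. Mapped reads per library (14617583 to 17679831) and whole reads per gene were recovered from the RPKM values, within 0.02 reads, for all 65 members and for 99.9% of 1495 other genes tried. Ratios used a pseudocount of 0.1 RPKM, which understates the change of low genes, and a minimum mean of 1 RPKM. No count model was fitted. A JQ1 effect over both lines was tested with limma (moderated, with a mean trend, expression on line and treatment, Benjamini-Hochberg adjusted), added after the values were seen. The procedures were tested on simulated data.

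The members and lists were chosen with earlier results of these data known. Named were 21 core genes and the members past 1.5-fold in both lines with libraries apart. The 5 whose ratio differed most between the lines were named too, as were the 5 highest and 5 lowest in Toledo with DMSO. So were the 2 leading genes of each other list. Further members and list genes, named to complete a family, a list or a count, were chosen after their values were seen. Alternatives changed the pseudocount, the filter, the table, the scaling and the library. Promoters came from RefSeq. Protein sequences were not analysed here, and 1 marker of the lists is not reported here. Python 3.11.15, pandas 2.3.3, scipy 1.17.1, matplotlib 3.10.9, Biopython 1.88, R 4.3.3 and limma 3.58.1 were used.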

Additional observations from a re-analysis of the deposited data

Results flagged for a closer look

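For 9 of the 54 members the JQ1 libraries of SU-DHL-5 lay wholly on one side of its DMSO libraries, and those of Toledo on the other side. This is 16.7% of the members, against 7.05% of all genes. The difference between the lines was not tested, since each line has 1 sample per treatment. Toledo minus SU-DHL-5, the log2 ratios differed by 1.41 for HSPA1A, 0.74 for HSPA1B, 0.43 for DNAJC30, 0.35 for DNAJA1, 0.31 for DNAJB1 and 0.29 for HSP90AA1. In the other direction they differed by -0.91 for HSP90B1, -0.77 for DNAJB9 and -0.51 for DNAJC19. All 6 genes of positive sign but DNAJC30, a mitochondrial J-domain protein, belong to the cytosol and nucleus, which holds 26 of the 54 members. HSP90B1 and DNAJB9 belong to the ER, which holds 13, and DNAJC19 to the mitochondrion.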

How the results depend on the processing

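Of 80 values of the 11 counts and medians under the alternatives, 75 stayed within 1.5 times the reported count or within the spread of the libraries. For a median, this spread was the standard deviation of its values with the first and the second library alone. Those values are themselves alternatives, so the measure could hardly show them as moved. The Toledo median with JQ1 counts as staying, although it was 0.04 and -0.21 with each library alone, against -0.07. The number of members at least 1.5-fold lower in SU-DHL-5 was 9 with the first library of each sample alone, against 5. In Toledo the number at least 1.5-fold higher was 2 with a pseudocount of 1 RPKM, 3 with a mean of at least 5 RPKM and 3 with the second library alone, against 5, and the number lower was 9 with the second library alone, against 5. The cause was not tested. Of 570 alternative values of single log2 ratios, 444 stayed within the counting interval of the ratio and 126 left it, and 15 changed sign, none of them for a ratio past its fold. The ratios of DNAJB11, DNAJC7, DNAJC12, DNAJC17 and DNAJC1 stayed past 1.5-fold in both lines with either library alone. The limma fit with the line as a replicate block, which pairs the DMSO and JQ1 samples of a line, called 9 to 11 members lower, against 12, and 2 to 3 higher, against 3, under other pseudocounts or with either library alone. With 1 sample per group, the intervals cover counting error and not the variation between cultures. Ratios of genes near 1 RPKM rest on few reads.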
